A study of Mus musculus with 24 samples.

Results

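The glutathione S-transferase genes Gstp1, Gstp2, Gsta2, Gsta3, Gsta4, Gstm1, Gstm2, Gstm3, Gstm6 and Gstt3 were examined in liver H3K27ac ChIP-seq peak lists of both sexes of C57BL/6J (here B6) and CAST/EiJ mice (here CAST). They are 10 of 22350 protein-coding genes of the annotation, and their peaks are those that overlap the gene body plus 10 kb on each side in mm9. Overlapping peaks of the lists were joined into regions, of which 65 of 119348 touch these windows. The 4 lists, B6 male, B6 female, CAST male and CAST female, each pool 5 livers of mice recorded as 8 weeks old, and the series adds 1 input control per group, for 20 livers and 4 inputs. The labels name no transgene or treatment. The strain field of the labels contradicts the titles of 2 of the 4 liver groups, because it gives all females as CAST/EiJ and all males as C57BL/6J. Groups were taken from the titles, which match the names of the lists. With 1 pooled list per group there is no spread between livers, so no value has an SD, no difference was tested across mice, and the comparisons below are descriptions of these lists. Where 4 values stand in a row, they are in the order B6 male, B6 female, CAST male, CAST female.

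Glutathione S-transferases join the thiol tripeptide glutathione to electrophilic compounds, such as activated drugs, carcinogens and products of lipid peroxidation, which makes them more water soluble and ready for export. The cytosolic enzymes fall into classes that include alpha (Gsta), mu (Gstm), pi (Gstp) and theta (Gstt), and the genes of a class lie beside each other as duplicated copies. The liver holds large amounts of these enzymes, and pi class expression in mouse liver is known for its male bias. H3K27ac, acetylation of lysine 27 of histone H3, marks active promoters and enhancers, and the comparisons ask where this mark differs between the sexes and whether the strains share the difference.

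Reference sequences are shown for the sites on which the results turn, read from the mm9 genome. Capitals mark matches to any of 4 motifs searched on both strands, namely TGACNNNGC (core of the antioxidant response element), TTCNNNGAA (STAT5), CAAAGTCCA (HNF4A core) and TTGCNNAA (C/EBP). No matches overlapped each other in the windows shown. The 250 bases before the Gstp1 start (chr19:4037922-4038171, minus strand) and those before the Gstp2 start (chr19:4042222-4042471, minus strand) are shown because a peak covers the first gene's start in every list and the second gene's start in none. The 250 bases before the Gsta3 start (chr1:21230420-21230669, plus strand) are the only promoter of the 10 with a TGACNNNGC match. The remaining sequences are 300 bases around a summit, plus strand. They are the region downstream of Gstp1 with the largest male excess (chr19:4024749-4025048), the region upstream of Gstp2 (chr19:4045836-4046135) and the male-only region of Gsta4 (chr9:78052228-78052527).
Gstp1 promoter: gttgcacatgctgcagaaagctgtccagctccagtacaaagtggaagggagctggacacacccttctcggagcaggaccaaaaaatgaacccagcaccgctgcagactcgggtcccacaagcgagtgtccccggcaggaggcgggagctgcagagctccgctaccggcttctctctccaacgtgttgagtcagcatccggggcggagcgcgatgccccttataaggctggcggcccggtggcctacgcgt
Gstp2 promoter: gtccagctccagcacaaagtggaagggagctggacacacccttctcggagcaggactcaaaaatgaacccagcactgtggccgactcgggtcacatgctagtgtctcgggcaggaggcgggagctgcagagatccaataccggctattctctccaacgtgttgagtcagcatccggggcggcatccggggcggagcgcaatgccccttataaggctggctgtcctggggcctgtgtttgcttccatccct
Gsta3 promoter: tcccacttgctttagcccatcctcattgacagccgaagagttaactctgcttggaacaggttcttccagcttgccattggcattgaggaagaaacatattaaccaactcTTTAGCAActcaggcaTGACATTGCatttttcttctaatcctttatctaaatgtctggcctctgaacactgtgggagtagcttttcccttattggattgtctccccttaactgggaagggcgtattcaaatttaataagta
Gstp1 downstream region: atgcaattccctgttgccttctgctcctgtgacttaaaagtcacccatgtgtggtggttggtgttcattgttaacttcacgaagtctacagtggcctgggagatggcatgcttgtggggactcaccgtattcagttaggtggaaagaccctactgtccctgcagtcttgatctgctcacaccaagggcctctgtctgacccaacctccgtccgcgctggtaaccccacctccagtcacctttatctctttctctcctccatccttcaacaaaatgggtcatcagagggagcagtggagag
Gstp2 upstream region: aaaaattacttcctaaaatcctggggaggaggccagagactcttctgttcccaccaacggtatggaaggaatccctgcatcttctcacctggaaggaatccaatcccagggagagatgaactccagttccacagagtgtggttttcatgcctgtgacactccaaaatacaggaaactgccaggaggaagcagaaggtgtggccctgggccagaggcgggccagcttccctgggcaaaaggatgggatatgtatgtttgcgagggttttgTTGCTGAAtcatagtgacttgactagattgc
Gsta4 male-only region: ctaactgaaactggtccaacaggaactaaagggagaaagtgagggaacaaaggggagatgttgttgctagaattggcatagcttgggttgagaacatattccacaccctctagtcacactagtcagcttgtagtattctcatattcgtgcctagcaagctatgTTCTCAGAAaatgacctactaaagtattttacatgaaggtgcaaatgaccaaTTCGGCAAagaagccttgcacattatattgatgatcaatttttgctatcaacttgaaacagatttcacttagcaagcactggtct

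The Gstp1 and Gstp2 promoters were identical at 205 of 274 aligned positions (74.8%), and their longest annotated transcripts at 94.7%. The Gsta3 promoter held 1 TGACNNNGC match, a motif in 9.97% of 22345 promoters of the same length, and 1 TTGCNNAA match, a motif in 9.12% of them. TTGCNNAA also matched in the Gstm2 promoter, so it was present in 2 of the 10, and TTCNNNGAA and CAAAGTCCA matched in 0 of 10, beside 6.82% and 0.398% of all promoters. In the summit windows, TGACNNNGC matched in 6 of 65 regions of these genes (9.23%) beside 11.9% of 119265 regions. TTGCNNAA matched in 8 of 65 (12.3%) beside 11.4%, TTCNNNGAA in 3 of 65 (4.62%) beside 8.95%, and CAAAGTCCA in 1 of 65 (1.54%) beside 0.558%. The shares of these genes thus lay near those of all regions, and a match is a description of letters, not of a bound site.

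The lists held 79818 to 90228 peaks on the autosomes and X, with median widths of 578.0 to 680.0 bp. Hepatocyte genes were used to check the tissue, and Alb, Apoa1 and Ttr had a promoter peak in every list, while Serpina1a had none in any. Of 5 markers of other liver cells, Stab2 of the sinusoidal endothelium had a promoter peak in every list, Clec4f of Kupffer cells only in B6 females, Lrat of stellate cells only in CAST females, and Krt19 and Cd3e in none. In tissue of several cell types, fewer cells with the mark and less mark per cell cannot be told apart. The fragments over each summit were recovered as whole numbers by solving each peak's enrichment and p-value together, within 0.001 of the −log10 p-value, for at least 99.9% of the solvable peaks of each list. Dividing them by the genome-wide background of the list, which was 18.4 and 18.7 fragments for B6 males and females and 17.8 and 16.8 for CAST males and females, gives the summit coverage used below. A summit coverage of 10 means 10 times that background, and its intervals cover counting error only.

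Every one of the 10 genes had peaks in every list, as did 15483 of the 22350 genes. In the windows of the 10 genes, which merge into 7 stretches of 274364 bp in all, there were 58 and 53 peaks for B6 males and females and 60 and 56 for CAST males and females. These peaks covered 46562 bp (16.97%), 41985 bp (15.3%), 43219 bp (15.8%) and 39600 bp (14.4%), so within each strain the males had the longer cover. The ratio of male to female covered length had a median of 0.16 on the log2 scale over the 10 genes in B6 and 0.12 in CAST, beside 0.05 and 0.11 over all 15483 genes. It was above 1 for 9 of the 10 in B6, beside 59.3% of all genes, and for 6 of the 10 in CAST, beside 69.9%. Windows of Gstp1 and Gstp2, of Gstm3 and Gstm6, and of Gstm2 and Gstm3 share regions, so these counts are not of independent genes.

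**Figure D1:**
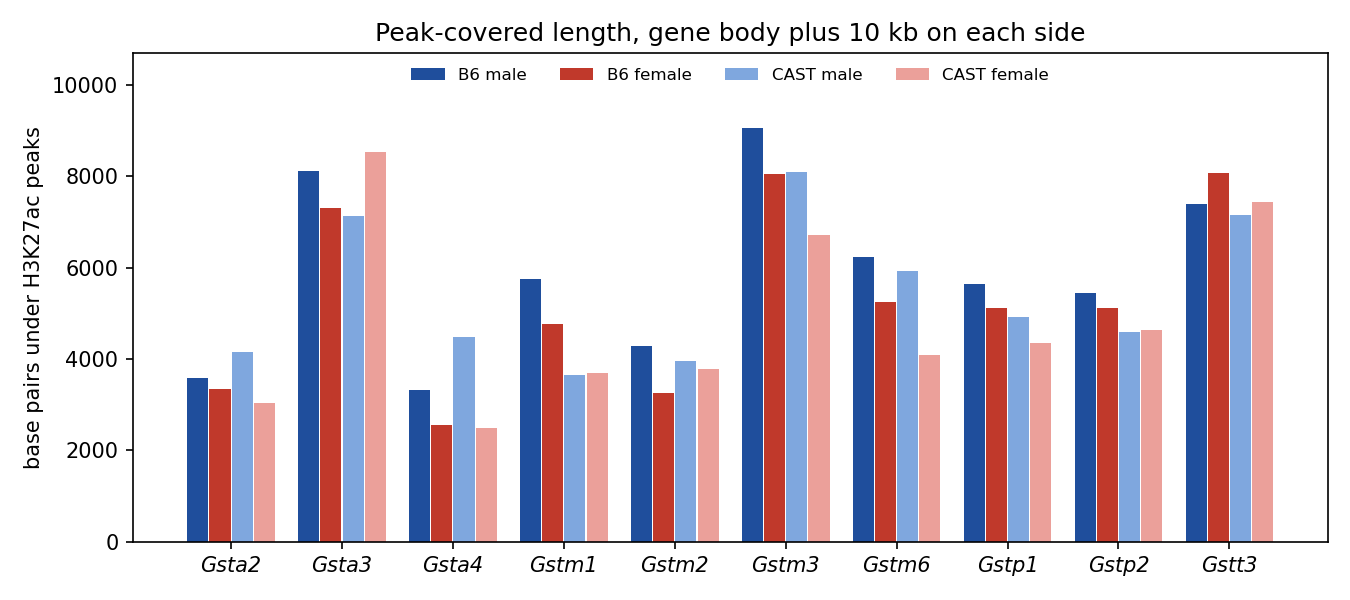
Bars give the base pairs under H3K27ac peaks (y axis, from 0) in the gene body plus 10 kb on each side of the 10 genes (x axis) in the 4 lists (colours). Each bar is 1 pooled list with no error, and the widest gaps between sexes and between strains are those of Gsta4 in CAST and of Gstm1 in males.

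A ratio of 1.5 or more was reached by 1 gene between the sexes and by 1 gene between the strains. Gsta4 had 3316 and 2546 bp under peaks in B6 males and females and 4478 and 2485 bp in CAST males and females, which is 1.80-fold more in CAST males than in CAST females. It was the only one of 10 past that fold in the male direction in CAST, beside 8.09% of all genes. In B6 the same ratio was 1.30, and 0 of 10 genes passed in the male direction, beside 4.95%. In the female direction, 0 of 10 passed in B6 and 0 of 10 in CAST, beside 3.49% and 1.8%. Gstm1 had a cover of 5740, 4756, 3658 and 3691 bp, which is 1.57-fold more in B6 than in CAST males and 1.29-fold more in females. It was the only one of 10 past that fold in favour of B6 in males, beside 4.51%, and 0 of 10 passed in B6 females, beside 9.87%. In favour of CAST, 0 of 10 passed in males and 0 of 10 in females, beside 8.65% and 8.29%. Both calls depended on the window. With 5 kb on each side Gsta4 fell short at 1.43 between the sexes of CAST and Gstm1 at 1.31 between males of the strains. Shares of 1 in 10 and 0 in 10 are close to those of all genes, so covered length alone set these genes apart in neither comparison.

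Of the 65 regions, 40 (61.5%) were called in all 4 lists, beside 40.4% of all regions, and 8 (12.3%) in a single list, beside 32.4%. In males of both strains and neither female list, 2 of 65 were called, beside 2.35% of all regions. In females of both strains and neither male list, 0 were called, beside 1.23%. By strain, 2 were called in both B6 lists only, beside 4.17%, and 5 in both CAST lists only, beside 6.15%. These 4 shares, of regions particular to a sex or a strain, were near those of all regions, while the 2 shares given before them lay further from those of all regions, with no test of the difference. Among the 40 regions called in all lists, 3 were at least 1.5-fold wider in males of both strains, beside 2.67% of 48266 regions, and 0 in females of both strains, beside 0.961%. In both sexes, 2 were wider in B6, beside 3.95%, and 1 in CAST, beside 2.9%. Most of these regions are described with their genes below.

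At the pi class genes Gstp1 and Gstp2, the sexes differed in height at several regions. A region 12.2 kb downstream of the Gstp1 start (chr19:4024678-4025733), outside any annotated gene, had a width of 910 and 283 bp in B6 males and females and of 1056 and 323 bp in CAST males and females. The 2 male widths exceeded the 2 female widths by 3.22-fold in B6 and 3.27-fold in CAST. Its summit lay under 209, 73, 180 and 54 fragments, a summit coverage of 11.4, 3.90, 10.1 and 3.21. The male over female ratio of summit coverage was 2.92 in B6 (95% counting interval 2.23 to 3.81) and 3.15 in CAST (2.33 to 4.28), and the male intervals of the strains did not separate, with a B6 over CAST ratio of 1.12 (0.921 to 1.37). Ranked by the lower of its 2 strain values, this region was number 4 of 47914 regions, and it was the 1 of the 40 regions that passed 1.5-fold in males of both strains, beside 0.783%. The female peaks lay beyond the 10 kb limit of the Gstp1 window, and the region was counted because the wider male peaks reach into it. Its inclusion thus rested on the lists in which it is wide, and its ratios, rank and place in the counts are a description that supports nothing about these genes as a group.

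**Figure D2:**
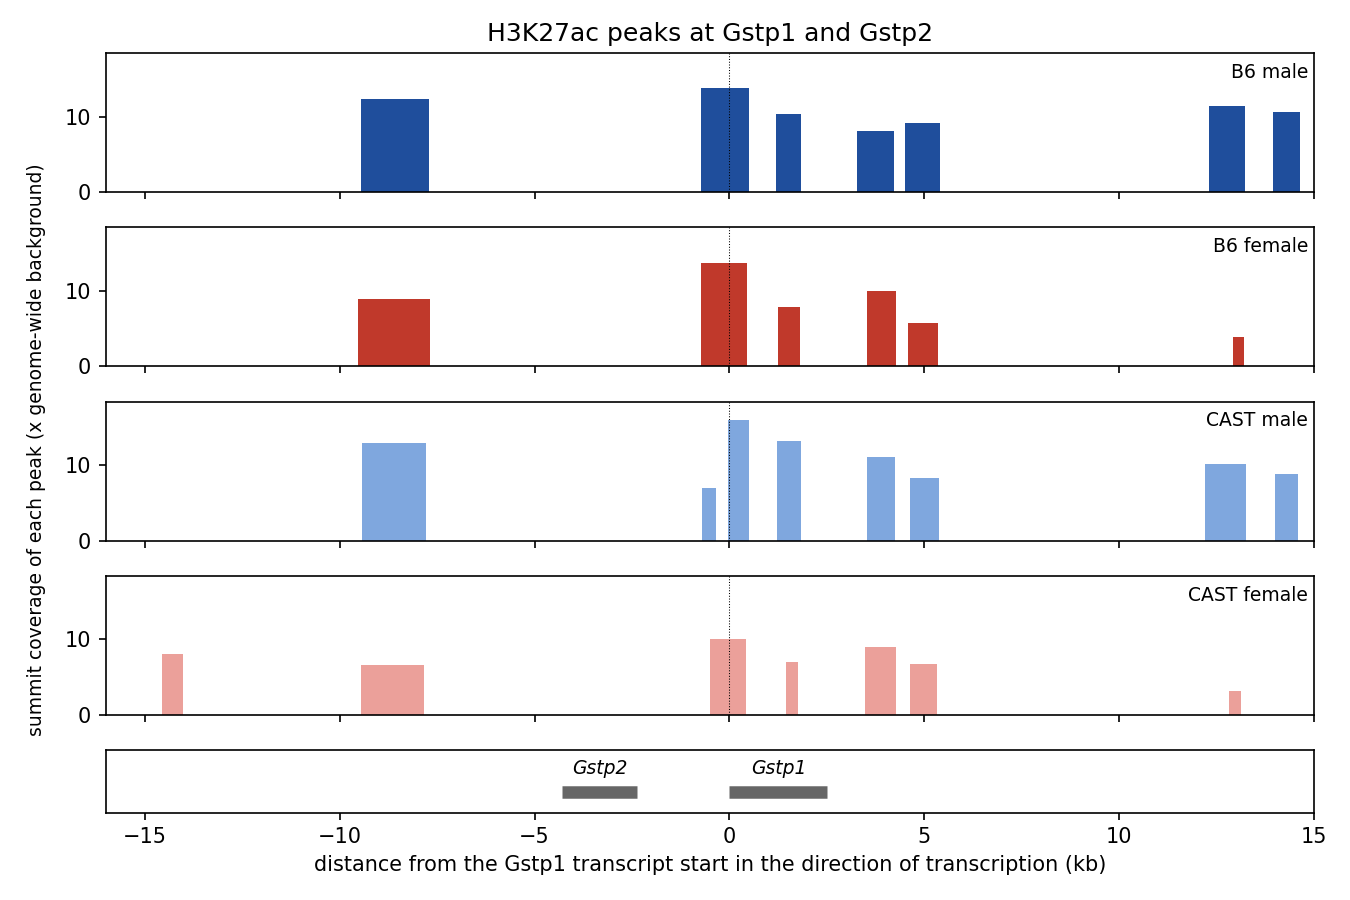
Each bar is an H3K27ac peak, drawn over its extent by distance from the Gstp1 start (x axis, kb in the direction of transcription, upstream negative), with its summit coverage as the height (y axis, times the genome-wide background), in 1 panel per list; the lowest panel shows the genes. Near 12 to 13 kb the peaks are tall and wide in both male panels and low and narrow in both female panels, and no panel has a peak over Gstp2.

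The other regions of this locus that were called in all lists differed less between the sexes. Upstream of Gstp2, 3.39 kb from its start (chr19:4045611-4047444), widths were 1745, 1834, 1632 and 1612 bp, while the summit coverage was 12.3, 8.88, 12.9 and 6.54. The male over female ratio was 1.39 (1.14 to 1.69) in B6 and 1.98 (1.58 to 2.48) in CAST. In the body of Gstp1, over coding exon sequence 1.19 kb from the nearest start (chr19:4036080-4036722), the coverage was 10.3, 7.91, 13.2 and 6.95, with ratios of 1.31 (1.06 to 1.62) and 1.89 (1.52 to 2.36). Downstream, 4.5 kb from the Gstp1 start (chr19:4032521-4033407), it was 9.10, 5.72, 8.27 and 6.71, with ratios of 1.59 (1.247 to 2.03) and 1.23 (0.964 to 1.57). By summit coverage, males were thus higher at these sites in both strains, beyond counting error in all but the last CAST comparison. At 3.26 kb (chr19:4033638-4034652) the strains differed in direction, with 8.12, 10.0, 11.1 and 9.03 and ratios of 0.811 (0.654 to 1.01) and 1.23 (0.998 to 1.52), neither beyond counting error. In all, 5 of the 6 regions nearest to Gstp1 or Gstp2 were higher in males of both strains by any fold. So were 19 of the 40 regions of all 10 genes (47.5%), beside 47.6% of all regions. The 5 include the region 12.2 kb downstream, which was counted through its male peaks. They also include the Gstp1 start, at a ratio of 1.01 (0.853 to 1.21) in B6. The 6 share a locus and are not independent.

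At the Gstp1 start itself (chr19:4037415-4038661) the strains parted. Summit coverage was 13.8 and 13.6 in B6 males and females and 16.03 and 10.0 in CAST males and females, so the sexes overlapped in B6, at a ratio of 1.01 (0.853 to 1.21), and not in CAST, at 1.60 (1.32 to 1.93). Gstp2, whose product differs from that of Gstp1 at few positions and has low activity, had no peak within 1 kb of its start in any list. Of the 50-base words within 1 kb of the start, 79.7% occur once in mm9 at Gstp2 and 80.6% at Gstp1. These shares are of exact single words, while the study sequenced read pairs, so they do not measure which reads could be placed. In the gene bodies the shares were 53.2% and 64.9%, the lowest of the 10 genes, and their part in the absence of peaks was not tested. The same check was not made on the CAST genome.

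The authors' fold enrichment, which divides by a local background, gave smaller male excesses at this locus, and at some sites the opposite order. Its intervals count the fragments at the summit only and leave out error of the local background, which would widen them. It was 2.92, 2.38, 3.11 and 2.22 at the region 12.2 kb downstream, a male over female ratio of 1.23 (0.943 to 1.61) in B6 and 1.40 (1.03 to 1.90) in CAST. At 3.26 kb it was 2.02, 3.23, 2.58 and 3.36. Females were thus higher in both strains, at 0.625 (0.504 to 0.775) and 0.768 (0.622 to 0.949), beyond the counting error of the summit fragments. At 4.5 kb the ratio was 1.17 (0.918 to 1.49) in B6 and 0.766 (0.599 to 0.979) in CAST, where females were thus higher, against the order by coverage. At the Gstp1 start it was 4.04, 4.94, 4.14 and 4.15, a ratio of 0.819 (0.688 to 0.974) in B6. Upstream of Gstp2 the ratio was 0.875 (0.716 to 1.07) in B6, below 1 where that of coverage was above it, and 1.23 (0.977 to 1.54) in CAST. In the Gstp1 body it was 1.03 (0.828 to 1.27) in B6 and lay within an interval of 0.945 to 1.47 in CAST, so none of these 4 ratios left 1 beyond counting error. The local background solved from the peaks was 70.8, 30.1, 57.2 and 23.8 fragments at the first site. Over the 6 regions of the locus it was 1.22 to 2.35 times as high in males as in females of B6 and 1.70 to 2.41 times in CAST. The local background thus moved with the sex here, and the part it plays in the fold enrichment was not tested beyond this division. With fold enrichment, 0 of the 40 regions passed 1.5-fold in males of both strains (0.0974% of all regions did), 0 in females of both strains (0.0186%), 0 in B6 of both sexes (0.232%) and 0 in CAST of both sexes (0.611%). With summit coverage, 0 passed in females of both strains (0.24%), 0 in B6 of both sexes (1.38%) and 0 in CAST of both sexes (3.09%). Over all regions the median male over female ratio of summit coverage was 1.14 in CAST and 1.04 in B6, and the median B6 over CAST ratio 0.909 in males and 1.0 in females, so the CAST male list was the higher one. CAST sex ratios near 1.14 are therefore not particular to these genes.

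**Figure D3:**
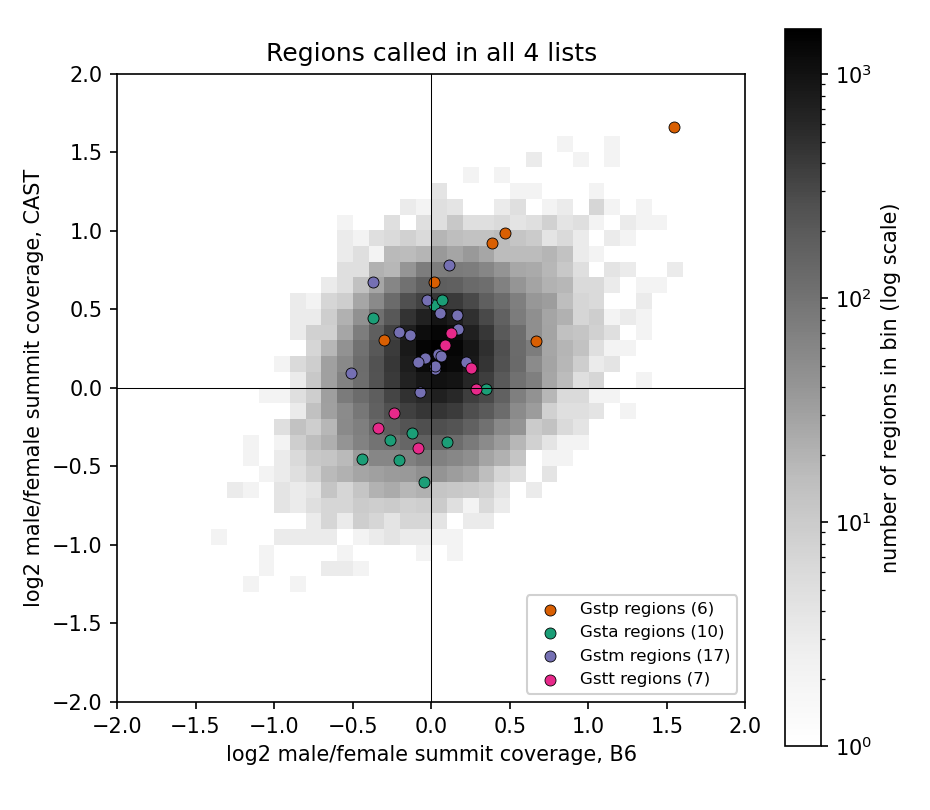
Points are the 40 regions of these genes called in all lists, coloured by class, placed by the log2 male over female summit coverage in B6 (x axis) and CAST (y axis); grey cells count all such regions on a log scale. The Gstp1 downstream region stands alone at the upper right, while points below 0 on both axes are mostly alpha and theta class regions.

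Of the alpha class, Gsta3, whose enzyme detoxifies the aflatoxin epoxide in mice, lay on the opposite side. At its start, over exon and UTR sequence (chr1:21230727-21233400), summit coverage was 10.2 and 13.8 in B6 males and females and 8.83 and 12.1 in CAST males and females. Both female lists exceeded both male lists, with male over female ratios of 0.738 (0.611 to 0.891) in B6 and 0.732 (0.594 to 0.902) in CAST. Of the 6 regions of Gsta3 called in all lists, 5 were higher in females of both strains, as were 9 of the 40 regions in all, beside 12.1% of all regions. By fold enrichment none of these 5 was higher in females of both strains, and the region 0.212 kb upstream of the start was higher in males of both, at 1.102 and 1.21. The local background was higher in females of both strains at each of the 5, such as 73.1, 89.7, 57.9 and 81.2 fragments at that upstream region. The ratios over the 6 ran from 0.738 to 1.07 in B6 and from 0.66 to 0.821 in CAST. At 12.7 kb in an intron (chr1:21243349-21243780) the coverage was 6.26, 6.47, 5.96 and 9.03, with ratios of 0.968 (0.75 to 1.249) and 0.66 (0.515 to 0.846). Regions of 1 gene share their cells and neighbourhood and are not replicates. Covered length did not follow height at this gene in B6, where males had more bases under peaks than females, at 8103 and 7309 bp. In CAST it did, at 7120 and 8526 bp in males and females. The male-only region of Gsta3, 3.15 kb into an intron (chr1:21233837-21234121), was narrow and low in rank, at 245 bp and 285 bp with fold enrichments of 1.46 and 1.55. Downstream of the gene, 25.5 kb from the nearest start (chr1:21256221-21257528), a region was wider in CAST, at 244, 298, 848 and 1284 bp, while its coverage was 3.32, 3.10, 3.04 and 3.86.

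Gsta4, whose enzyme acts on 4-hydroxynonenal from oxidised lipids, had its covered length difference from distal regions. At its start (chr9:78038942-78040741) the widths were 1732, 1800, 1564 and 1464 bp and the coverage 8.99, 8.88, 10.5 and 7.31. The sexes overlapped in B6, at 1.01 (0.816 to 1.26), and CAST males were higher, at 1.44 (1.15 to 1.81). A region 12.2 kb into the gene, over coding exon sequence (chr9:78051971-78052773), was called in males only, at 232 bp in B6 and 706 bp in CAST, with a summit coverage of 2.18 and 3.21. That region holds 1 TTCNNNGAA and 1 TTGCNNAA match in the window shown above. Its B6 male peak stood at percentile 11.6 of the list with 40 fragments, the fewest of any peak of these genes, and its CAST male peak at 50.2. The lists give no value for the females, where no peak was called. Downstream, at 24.3 kb (chr9:78064096-78064997), a region was 817 and 395 bp wide in males and females of B6 and 816 and 258 bp in CAST. Its coverage of 3.87, 3.69, 5.34 and 3.63 gave ratios of 1.05 (0.752 to 1.46) and 1.47 (1.07 to 2.03), so in B6 the peak was wider in males without a difference in height beyond counting error. At 25.6 kb (chr9:78065329-78065863) a region was 535 and 351 bp wide in B6 males and females and 489 bp in CAST males, with no peak in CAST females. Its coverage ratio in B6 was 1.52 (1.05 to 2.195). In CAST only, an intron region at 2.21 kb (chr9:78041988-78042442) had widths of 406 and 359 bp and a coverage of 4.78 and 4.93, and a region at 20.3 kb (chr9:78060074-78060742) had 497 and 404 bp and 3.21 and 2.73.

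Gsta2, a liver alpha class enzyme, differed by strain. At its outermost start (chr9:78202701-78204172) the coverage was 6.92 and 8.93 in B6 males and females and 6.81 and 4.99 in CAST males and females. B6 females were the highest and CAST females the lowest, a B6 over CAST ratio of 1.79 (1.38 to 2.33) in females beside 1.02 (0.792 to 1.30) in males. The sex ratio ran opposite ways, at 0.774 (0.615 to 0.976) in B6 and 1.36 (1.03 to 1.80) in CAST. Inside the gene the order turned at some regions only. An intron region 11 kb from that start (chr9:78191446-78192577) had a coverage of 4.90, 3.85, 6.86 and 6.89, a B6 over CAST ratio of 0.714 (0.544 to 0.938) in males and 0.559 (0.416 to 0.75) in females. Intron regions at 2.56 kb (chr9:78200471-78201036) and 7.75 kb (chr9:78195006-78195850) had no peak in CAST females. Their B6 over CAST ratios in males were 1.57 (1.12 to 2.19) and 0.844 (0.599 to 1.19). A CAST-only intron region at 1.86 kb (chr9:78201329-78201735) had 308 and 272 bp, and 85.8% of its 50-base words occur once in mm9, as do 73.8% of those of the whole Gsta2 body. In B6 females alone, a region was called at 6.48 kb (chr9:78196589-78197117), 529 bp wide with a coverage of 3.48.

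The mu class genes lie in 1 cluster on chromosome 3. Gstm1, an abundant mu class enzyme of liver, had the tallest promoter peak of these genes in every list, at 16.1, 17.1, 16.6 and 14.8. No sex or strain ratio there left 1 beyond its counting interval, with 0.942 (0.804 to 1.103) and 1.12 (0.947 to 1.33) between the sexes of B6 and CAST. Its cover differed between B6 and CAST mainly at 3 places. A region at 13.4 kb downstream (chr3:107804680-107806117) was 1060, 1395, 649 and 612 bp wide at a coverage of 3.49, 3.42, 3.04 and 2.79. An intron region at 0.505 kb (chr3:107818172-107819013) was called in B6 alone, with 734 and 746 bp. Upstream at 6.95 kb (chr3:107827841-107829659), widths were 1734, 790, 874 and 885 bp, so B6 males alone were wide.

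Gstm6, a further mu class gene, had a region at its start (chr3:107745903-107746660), which also lies in an intron of a Gstm3 transcript model, that was wider in males of both strains at 651, 382, 755 and 332 bp. Its coverage was 7.41, 6.84, 7.76 and 4.52, with ratios of 1.08 (0.85 to 1.38) in B6 and 1.72 (1.30 to 2.27) in CAST. The height thus differed beyond counting error in CAST only, and the difference between the strains' ratios was not tested. By fold enrichment the CAST ratio was 1.29 (0.976 to 1.71), within counting error. At the Gstm3 start (chr3:107771929-107772564) the coverage was 5.77, 5.62, 4.56 and 3.92, the lowest of the 9 promoters with a peak in every list, and the widths of 264, 616, 276 and 413 bp were larger in females. At the Gstm2 start (chr3:107788625-107789761) it was 6.32, 7.27, 6.07 and 4.75. The B6 over CAST ratio in females was 1.52 (1.14 to 2.01) at Gstm6, 1.43 (1.05 to 1.95) at Gstm3 and 1.53 (1.16 to 2.02) at Gstm2, and in males none of these 3 left 1. By fold enrichment none left 1 in females either, at 1.11 (0.838 to 1.48), 0.941 (0.691 to 1.28) and 1.27 (0.966 to 1.68). The local background was higher in B6 than in CAST females, at 42.3 and 27.7, 53.2 and 31.2, and 26.3 and 19.6 fragments. A region 5.33 kb from the Gstm2 start (chr3:107783558-107783945) was called in B6 alone, with 328 and 352 bp.

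The theta class gene Gstt3, of a class active on small halogenated compounds, had a higher summit coverage in females at its start (chr10:75242119-75244322). That region also overlaps another annotated gene, RP23-333M15.8, near a start of it, so the lists did not tie it to Gstt3 alone. Summit coverage was 8.28 and 10.5 in B6 males and females and 10.5 and 12.5 in CAST males and females. The male over female ratio was 0.79 (0.639 to 0.976) in B6 and 0.839 (0.689 to 1.02) in CAST, and the B6 over CAST ratio 0.787 (0.635 to 0.975) in males and 0.836 (0.688 to 1.02) in females. By fold enrichment the male over female direction turned, at 1.01 in B6 and 1.16 in CAST, neither beyond counting error, and the local background was 53.2, 69.5, 53.6 and 70.2 fragments, higher in the females. The highest summits of the window belong to a region over the promoter of Ddt (chr10:75234284-75236114), at 18.95, 17.9, 22.7 and 18.8, and were not tied to Gstt3 by the lists. A region beside it (chr10:75236353-75236833) was wider in B6, at 481, 402, 308 and 258 bp. A CAST-only region at 9.88 kb (chr10:75229121-75229726), near the start of Cabin1, had 582 and 525 bp and a coverage of 4.61 and 5.65. Regions called in a single list included an upstream one at 2.87 kb in B6 males (chr10:75247027-75247292), which overlaps Gstt1. It was 266 bp wide with a fold enrichment of 1.70 and a coverage of 5.77. Also in B6 males alone, an intron region of Gstm3 was 308 bp wide with a coverage of 5.28, and one over coding sequence of Gsta3 was 280 bp wide with a coverage of 3.10. In CAST females alone, an intron region of Gsta3 was 248 bp wide with a coverage of 4.04, and a region 9.72 kb upstream of Gstp2 was 530 bp wide with a coverage of 8.08, above the 6.54 of the region nearer to that gene. By fold enrichment the order of these 2 Gstp2 regions was reversed, at 1.86 and 3.42, with local backgrounds of 72.8 and 31.4 fragments.

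Across the 9 promoters with a peak, the order of summit coverage in B6 males was Gstm1, Gstp1, Gsta3, Gsta4, Gstt3, Gstm6, Gsta2, Gstm2 and Gstm3, and the counting intervals of neighbours in this order overlapped except those of Gstp1 (12.2 to 15.6) and Gsta3 (8.78 to 11.7). Between the sexes, 3 promoters (Gsta2, Gsta3, Gstt3) were higher in females of B6 beyond counting error and 0 in males. In CAST, 4 (Gstp1, Gsta2, Gsta4, Gstm6) were higher in males and 1 (Gsta3) in females. Set against the median ratio of all regions, 1.14, in place of 1, the male count in CAST was 3, without Gsta2, and the female count 2, with Gstt3. Between the strains, 5 (Gstp1, Gsta2, Gstm2, Gstm3, Gstm6) were higher in B6 females than in CAST females, and 1 (Gstt3) was lower in B6 males than in CAST males. Against the all-region median of 0.909 in males, none was lower and 1 (Gstm3) was higher, while against the median of 1.0 in females the same 5 were higher. Between the sexes of B6, Gsta2, Gsta3 and Gstt3 were also higher in females against the median ratio of 1.04. In both strains beyond counting error, Gsta3 alone was higher in females against a ratio of 1, and Gsta3 and Gstt3 were against the medians. With the authors' fold enrichment, 2 (Gstp1, Gsta2) were higher in females of B6, 0 differed between the sexes of CAST, and between the strains 1 (Gsta2) was higher in B6 females and 0 differed in males. For Gsta2 the highest fold in CAST females lay at another region than in B6 females. At the region of its outermost start alone, that ratio was 1.40 (1.07 to 1.82). For Gsta3 the highest peak in CAST males lay upstream of the start, at another region than in CAST females. Its CAST fold enrichment ratio of 1.16 (0.944 to 1.43) thus compares different regions. At the region of the start alone, the ratios were 0.894 (0.74 to 1.08) in B6 and 1.097 (0.891 to 1.351) in CAST. The common direction of coverage was thus lost there. At the upstream region they were 1.102 and 1.212, above 1 in both strains, and no interval at either region excluded 1. The local background at the region of the start was 76.0, 93.8, 58.9 and 83.9 fragments, higher in the females. The intervals do not include the spread between livers, which would widen them.

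**Figure D4:**
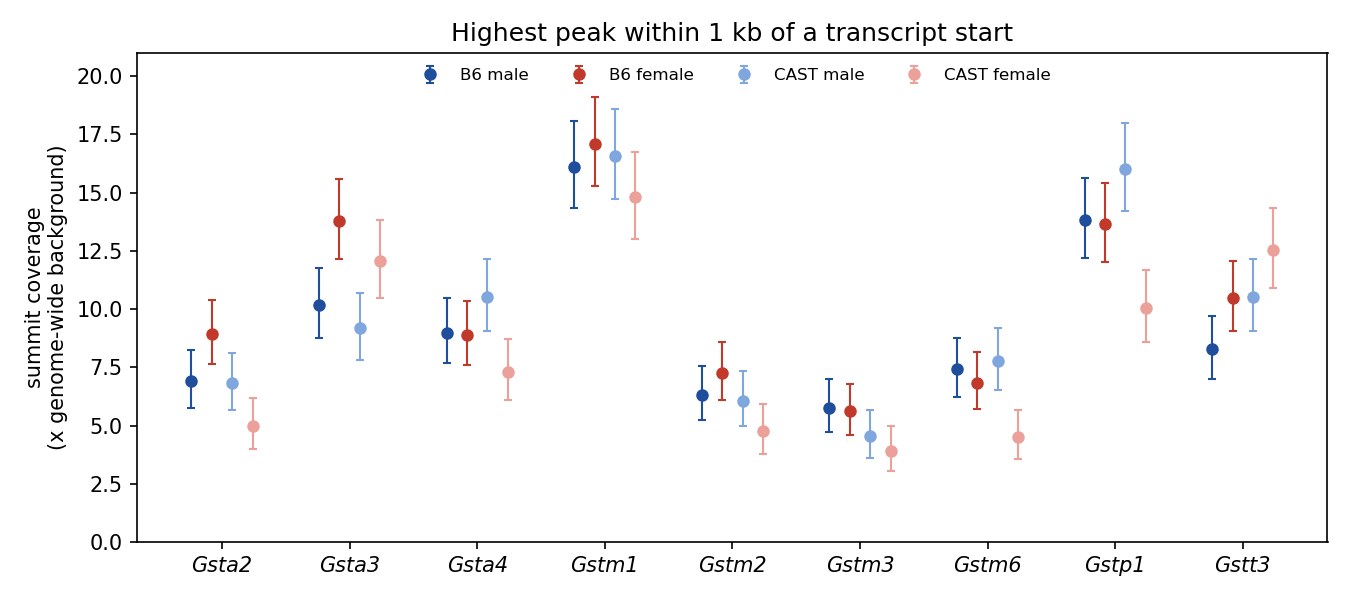
Points are the summit coverage (y axis, times the genome-wide background) of the highest peak within 1 kb of a transcript start of each gene (x axis) in each list, with 95% counting intervals as bars; Gstp2 has no such peak. Female points lie above male points of the same strain at Gsta3 and Gstt3, and CAST female points are the lowest of the 4 at 7 of the 9 genes.

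Other genes of the pathway were counted from fixed lists by covered length past 1.5-fold. Over all genes, 4.95% passed in the male and 3.49% in the female direction in B6, 8.09% and 1.8% in CAST, 4.51% in favour of B6 and 8.65% of CAST in males, and 9.87% and 8.29% in females. Of 15 further transferases, 13 had peaks in all lists. Of these, 1 was higher in males of B6 (Mgst2, a microsomal enzyme, at 2.43) and 1 in males of CAST (Gstm5, at 2.06). In males 1 was lower in B6 than in CAST (Mgst2, at 0.588). In females 3 were higher in B6 (Gstm4 at 1.52, Gstm5 at 2.41 and Gstt4 at 1.94) and 1 lower (Mgst2, at 0.279). Of 8 genes of glutathione synthesis and recycling, 7 had peaks in all lists, and Gsr, the glutathione reductase, passed between the sexes of CAST at 1.52 and between the strains at 1.58 in males and 2.16 in females. Of 6 genes of the NRF2 response, Nfe2l2, which encodes NRF2 itself, passed between the sexes of CAST at 1.503 and between the females of the strains at 1.77, and Nqo1, a quinone reductase, at 1.64 in females. Of 4 exporters of conjugates, Abcc1 passed between the sexes of B6 at 2.11 and was lower in B6 than in CAST at 0.616 in males and 0.297 in females. Of the genes with peaks in every list, none passed in the female direction in either strain. Slc7a11, the cystine transporter, had no peak in 3 of the lists and 407 bp in CAST females, so it has no ratio. The lists are short, so 1 gene more or less moves their share past these background shares.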

How the data were processed

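H3K27ac ChIP-seq of 20 mouse livers (5 per sex and strain) and 4 inputs was analysed from 4 merged peak lists. As the study describes, the authors merged the libraries of a group, aligned uniquely mapping reads with Bowtie2 to mm9 (B6) or to a CAST genome converted to mm9, and called peaks with MACS2 over input. The authors deposited for each peak a score (−log10 q-value times 10), a fold enrichment at the summit (a ratio), the −log10 p-value and q-value, and the offset of the summit. The smallest −log10 q-value was 1.3. Library depths, which the study describes, were not used here, since the peak lists pool the libraries of a group.

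Covered bases, regions (peaks overlapping by at least 1 bp) and distances were computed in Python 3.11.15 with NumPy 2.4.6, pandas 2.3.3 and SciPy 1.17.1 on mm9 with GENCODE vM1. Whole fragments at each summit and the background were solved from the fold enrichment and p-value. The genome-wide background is the most frequent solution, and no more than 0.0% of solutions lay below it. Intervals (95%) are normal on the log scale for ratios and exact Poisson for single values. They count the summit fragments only, so those of fold enrichment leave out error of the local background. The solver was tested on simulated data. Whether the local background comes from input, as the methods state, or from the ChIP reads around a peak was not tested. A fold of 1.5 was used throughout. All 10 genes are named, and regions by rule: those nearest a start, and up to 6 each that were wider past the fold in both strains or sexes, or called in 1 sex, strain or list only, by rank. Values at regions outside this rule were chosen after they were seen. The genes, lists and motifs were chosen with earlier results of these data known. Sequences are those of the B6 reference. The result for a region that the rule would name is not reported here.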

Additional observations from a re-analysis of the deposited data

Results flagged for a closer look

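A region in an intron of Gstm3, 5.26 kb upstream of the Gstm6 start (chr3:107751929-107752463), differed in width in opposite directions between the sexes of the 2 strains. It was 329 bp wide in B6 males and 535 bp in B6 females, but 418 bp in CAST males and 217 bp in CAST females. The male over female ratio in B6 divided by that in CAST was 0.319. Its summit coverage followed the same order, at 3.76, 4.87, 4.16 and 2.61. The difference between the strains was not tested, since each list pools its livers.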

How the results depend on the processing

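No paired analysis was possible because each list pools the 5 livers of its group, and for the same reason no liver could be left out in turn. Summit coverage was added after the data were seen. The ratios of covered length stayed within 1.5-fold of their values in 316 of 316 comparisons with other windows, filters or list lengths, the gene body alone included where every list had a peak in it. Genes past the fold between the sexes numbered 1, and 3 with the gene body only, 2 with equal list lengths, 2 without regions at promoters of other genes, 5 at a ratio of 5 to 4 and 0 at a fold of 2. Between the strains they numbered 1, and 2 with the gene body only, 2 without regions at other promoters, 0 with 20 kb on each side, 0 at a −log10 q-value of at least 5, 4 at a ratio of 5 to 4 and 0 at a fold of 2. The genes behind these counts changed with the window. With 5 kb on each side both counts stayed at 1, but the gene between the sexes was Gstm6 in CAST (1.72) in place of Gsta4, and that between the strains was Gsta4 in males (0.619), in favour of CAST, in place of Gstm1. With the gene body only, the genes between the strains were Gsta4 in males (0.552) and Gstm2 in females (0.632), both in favour of CAST, and Gstm1 was at 1.39. With peaks up to 500 bp apart merged, male-only regions numbered 1 in place of 2, single-list regions 5 in place of 8, regions wider in B6 1 in place of 2, and regions wider in CAST 0 in place of 1. Male-only regions also numbered 1 with equal list lengths. At a ratio of 5 to 4, regions wider in females of both strains numbered 2 in place of 0, those wider in CAST 2 in place of 1, those with a higher fold enrichment in females 1 in place of 0 and in CAST 2 in place of 0. At a fold of 2, regions wider in B6 numbered 0 in place of 2. Summit coverage in place of fold enrichment gave 1 region higher in males of both strains in place of 0. Of 144 promoter ratios under other measures, 119 stayed within their counting interval or direction and 25 moved. Among them was Gsta2 between the strains in females, at 0.857 in place of 1.37 when the highest peak within 2.5 kb was taken. Another was Gstm3 between the strains in males, which was 1.58. The causes were not tested. Depth limits the lower ratios: the 1.23 in CAST at the region 4.5 kb from Gstp1 had an interval of 0.964 to 1.57.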

Other observations

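Just outside the Gstp1 window, a further peak lay 13934 to 14646 bp downstream of the Gstp1 start in B6 males, with a summit coverage of 10.7, and 14007 to 14591 bp downstream in CAST males, with 8.83. No peak was called there in either female list. It was noticed after the values were seen and belongs to no count above. Gsta1, an alpha class gene, had 1849 and 352 bp under peaks in B6 males and females and 716 and 0 bp in CAST males and females, and was left out of the counts of folds because of the empty list.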
